A study of Mus musculus with 2 samples.

Results

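The genes described here encode the proteins of the mitochondrial ribosome, and their output was read as ribosome footprints in 2 brains of control mice aged 5 days (P5). They were chosen by name: every gene whose symbol was Mrpl or Mrps followed by a number and, in a few cases, a letter, and which had at least 1 transcript of the class protein_coding. This gave 77 genes of the 45578 in the deposited table, 48 with a large subunit symbol (Mrpl) and 29 with a small subunit symbol (Mrps), annotated with 287 transcripts. No measured value entered the choice. All 77 passed the minimum used for testing, a mean count of 10 over the 2 libraries, with 25 to 224 footprints per gene in replicate 1 and 83 to 615 in replicate 2.

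Both animals were controls of a mouse model of spinal muscular atrophy, with the genotype Smn+/-; SMN2tg/0 on a congenic FVB background: 1 mouse Smn allele was disrupted and a human SMN2 transgene was present. The disease genotype and animals without these alleles were not analysed here, so the series holds 1 group of 2 biological replicates and no contrast between conditions. Polysomes were taken from frozen whole brain on a sucrose gradient and digested with RNase I, and fragments of 25 to 35 nucleotides were sequenced. The libraries held 1866831 footprints in replicate 1 and 5261878 in replicate 2, a ratio of 2.82, so a member's value is more precise in replicate 2. A count of 3, the limit that a count of 0 allows, corresponds to 1.61 footprints per 1000000 in the library (CPM) in replicate 1 and 0.570 CPM in replicate 2, far below every member. Neuronal, astrocyte and oligodendrocyte markers were all present in both libraries (14 of 14), and 3 of 5 genes of other tissues also had footprints in both. The liver genes Alb and Apoa2 had none in either library, the muscle genes Acta1 and Ckm had 140 and 264 footprints and 3 and 4, and the heart gene Myh6 had 7 and 30. The summed level of the 4 oligodendrocyte markers was 426 CPM in replicate 1 and 730 CPM in replicate 2, that of the 5 neuronal markers 4761 and 3698 CPM, and the part of cell composition in the values below was not tested. In whole tissue, fewer cells of a type and fewer footprints per cell cannot be told apart.

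Mitochondrial ribosomes make the few membrane proteins that the mitochondrial genome still encodes, all of them parts of the respiratory chain and ATP synthase, on which neurons depend heavily. Their RNA comes from mitochondrial DNA, but every protein of the particle is encoded in the nucleus, made on cytosolic ribosomes and imported. The small subunit reads the messenger RNA, and the large subunit joins amino acids and feeds the growing chain into the inner membrane. Many subunits descend from bacterial ribosomal proteins and others exist only in mitochondria. The footprints described here therefore report how much cytosolic ribosomes were engaged on the messages for these proteins, not the activity of the mitochondrial ribosome.

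The 77 genes together took 0.345% of all footprints in replicate 1 (6443 footprints, exact 95% binomial interval 0.337 to 0.354) and 0.364% in replicate 2 (19154 footprints, 0.359 to 0.369). The mean share was 0.355% ± 0.0134 (SD, n = 2). The gap between the replicates exceeded the counting error, since the intervals did not meet, and it was small against the share itself. Large subunit genes held 0.219% ± 0.00419 and small subunit genes 0.135% ± 0.00917 (SD, n = 2). The 79 cytosolic ribosomal protein genes that passed the same minimum held 1.25% ± 0.0289 (SD, n = 2).

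Levels of different genes are compared below as footprint density, the CPM per kilobase of the longest annotated coding sequence. The median density of the members was 72.0 in replicate 1 and 73.6 in replicate 2 (72.8 ± 1.15, SD, n = 2). Over all 13317 coding genes that reached the same minimum count the medians were 22.0 and 24.7. The median member thus had 3.27 and 2.99 times the density of the median coding gene, and 73 of the 77 lay above that gene. In CPM, which does not correct for length, the same comparison gave ratios of medians of 1.33 and 1.29 only, and 58 of 77 members lay above the coding median. The coding sequences of members are short, with a median of 579 nucleotides against 1413 over all coding genes. Median annotated 5′ leaders were 87 nucleotides in members and 166 in all coding genes.

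**Figure D1:**
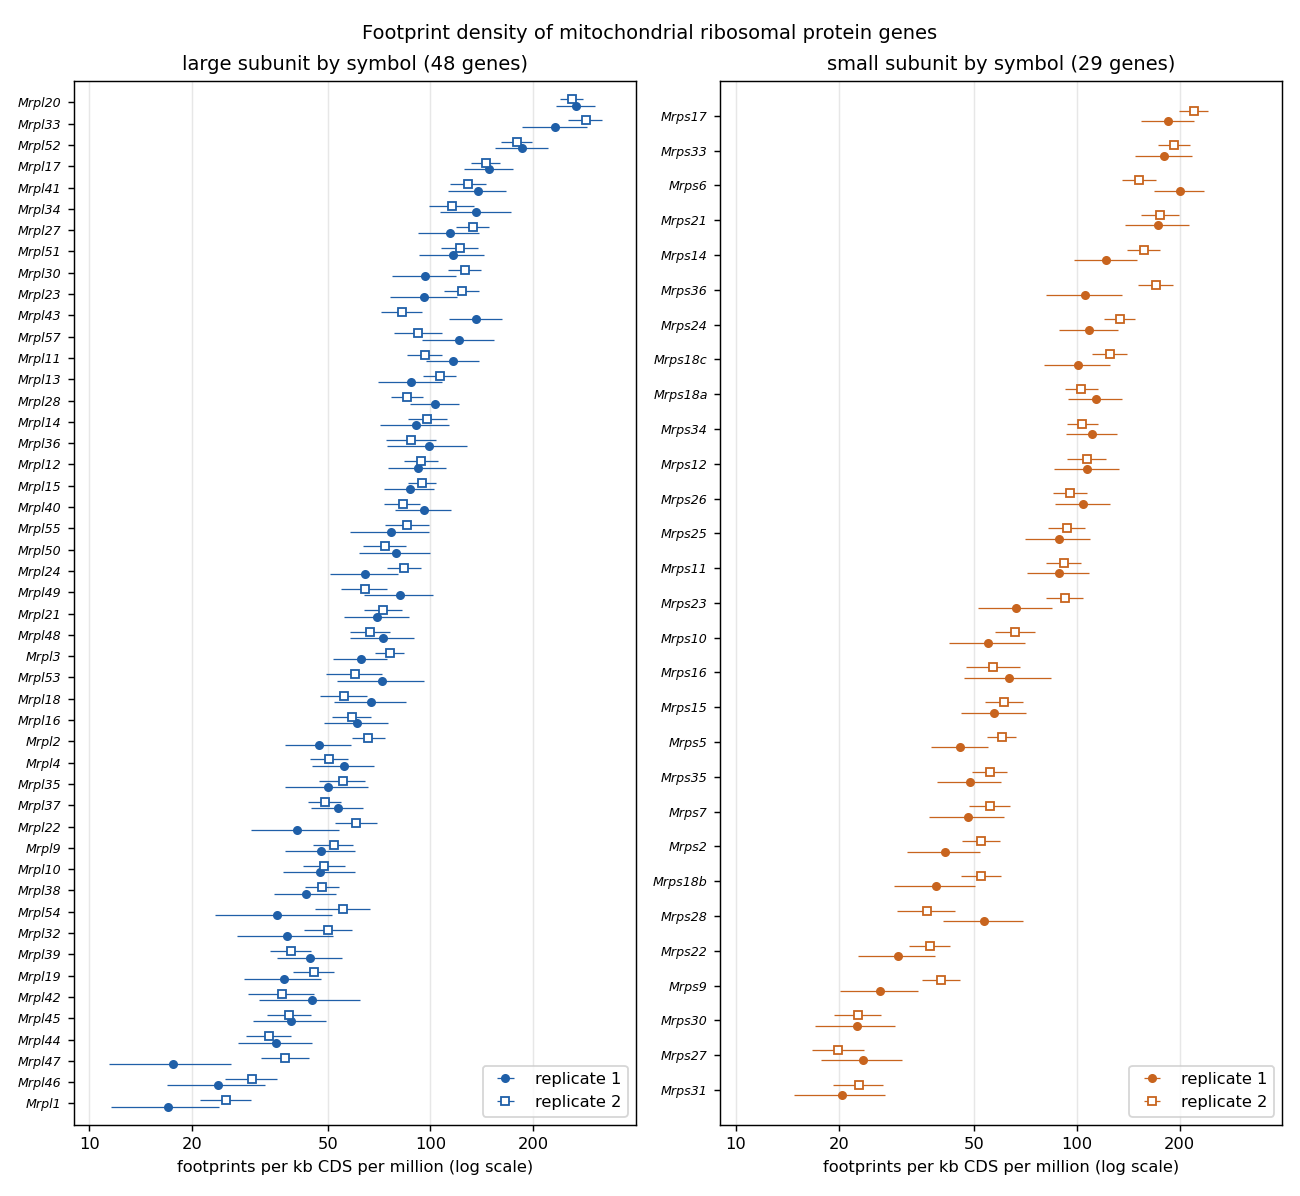
Footprint density of each of the 77 members, in CPM per kilobase of coding sequence on a log axis, ordered by mean density. Each replicate has 1 point with an exact 95% binomial interval. Large subunit genes are in the left panel and small subunit genes in the right. Mrpl20 (mean 263) and Mrpl33 (mean 259) stand at the top, Mrps27, Mrps31 and Mrpl1 at the bottom between 16.95 and 25.2, and the intervals of the replicates meet in 72 of the 77 genes.

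The highest mean densities were those of large subunit genes, Mrpl20 and Mrpl33. Of the 10 densest members 6 had a small subunit symbol, as do 29 of all 77 members. Of these 6, Mrps14 and Mrps36 fell to ranks 15 and 28 of the 77 with protein_coding transcripts alone. Mrpl20, whose bacterial counterpart binds ribosomal RNA early in large subunit assembly, had a density of 267 in replicate 1 and 260 in replicate 2, from 224 and 615 footprints. Mrpl33, the counterpart of one of the smallest bacterial ribosomal proteins, had 233 and 285 (259 ± 37.1, SD, n = 2), from 86 and 297 footprints over a coding sequence of 198 nucleotides. With protein_coding transcripts alone its density was 85.1 and 75.8, rank 25 of the 77. The exact binomial intervals of these genes overlapped in each replicate, 233 to 304 for Mrpl20 and 186 to 287 for Mrpl33 in replicate 1, so their order was not settled. Mrpl52, a protein specific to mitochondria, followed with 186 and 179. Mrpl17, near the exit of the peptide tunnel, had 148 and 145, and Mrpl41, another mitochondria-specific protein, 138 and 129. Mrpl52, Mrpl17 and Mrpl41 were close between the animals, with SDs of 2.11 to 6.24, while Mrpl33 was lower in replicate 1. Counted on protein_coding transcripts alone, Mrpl17 had 76.7 and 73.7, rank 31 of the 77. Mrpl52 then had 144 and 146, and Mrpl41 had 181 and 173.

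At the other end, Mrpl1, the protein of the mobile stalk beside the site where spent transfer RNA leaves, had a density of 16.95 in replicate 1 and 25.2 in replicate 2, from 32 and 134 footprints. Mrpl46 had 23.9 and 29.9, and Mrpl47, the counterpart of bacterial L29, 17.6 and 37.6. Mrpl44, a subunit with a fold related to ribonuclease III, had 35.3 and 33.6. Mrpl45, the subunit that tethers the particle to the inner membrane, had 39.0 and 38.6. Mrpl47 was low in replicate 1 and its intervals did not meet (11.4 to 26.0 against 31.8 to 44.1), while the values of Mrpl44 and Mrpl45 were almost equal in both animals.

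In the small subunit the densest gene was Mrps17, an RNA-binding protein with a bacterial counterpart, at 184 in replicate 1 and 220 in replicate 2. Mrps33 had 180 and 192. Mrps6, whose bacterial counterpart pairs with S18, had 200 and 152. Mrps21 had 172 and 175, and Mrps14, a protein of the subunit head, 122 and 157. Mrps6 was thus first of the small subunit in replicate 1 and behind Mrps17, Mrps33, Mrps21, Mrps36 and Mrps14 in replicate 2. The lowest were Mrps30 with 22.6 and 22.7, Mrps31 with 20.4 and 22.9, and Mrps27, a pentatricopeptide repeat protein, with 23.6 and 19.9. Mrps22 had 29.8 and 37.0, and Mrps9 had 26.5 and 40.0. Over all transcripts, Mrps30, Mrps31 and Mrps27 stood below every other small subunit gene in both animals. This did not hold on protein_coding transcripts alone. By mean density Mrps9, Mrps2 and Mrps5 then had ranks 77, 74 and 72 of the 77. Mrps31, Mrps27 and Mrps30 stood above them at ranks 70, 69 and 67, and Mrps11 had rank 68. Over all transcripts, the mean densities of the other 38 large subunit genes ran from 40.9 (Mrpl42) to 126 (Mrpl34). Those of the other 19 small subunit genes ran from 44.9 (Mrps28) to 138 (Mrps36).

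Subunits that work at one site of the particle did not share one density. Among the proteins of the stalk that recruits translation factors, Mrpl11 at the base had 117 and 96.2, Mrpl12, which is present in several copies, 91.9 and 94.1, and Mrpl10, which carries Mrpl12, 47.5 and 48.9. Mrpl10 was lowest of the 3 in both animals, and Mrpl11 and Mrpl12 were close in replicate 2. On protein_coding transcripts alone Mrpl10 was still lowest, with 62.3 and 65.4. Mrpl11, with 153 and 129, then stood well above Mrpl12, with 78.8 and 76.8. Around the tunnel exit, Mrpl23 had 96.0 and 124, Mrpl24 had 64.2 and 83.8, and Mrpl22 had 40.5 and 60.6. Each of them was higher in replicate 2 and none was called different in the test given below. Their order depended on the transcripts counted. On protein_coding transcripts alone Mrpl24 had 83.0 and 111, above Mrpl23 with 66.9 and 79.0. On the decoding side, Mrps12, the counterpart of the protein that sets accuracy and streptomycin response in bacteria, had 107 and 107. Mrps5 had 45.4 and 60.1, and Mrps7 had 47.8 and 55.5, both below Mrps12.

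Some symbols place a gene in the wrong subunit. The products of Mrps18a and Mrps30 sit in the large subunit, and that of Mrps36 has been assigned to the 2-oxoglutarate dehydrogenase complex. The 3 paralogs that share the Mrps18 name differed: Mrps18a had a density of 113 in replicate 1 and 103 in replicate 2, Mrps18c 100 and 124, and Mrps18b 38.5 and 52.4. Mrps18b was the lowest of the 3 in both animals, and Mrps18a and Mrps18c exchanged places. Mrps36 had 106 and 170 (SD 45.7, n = 2).

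The subunits could not be told apart by their typical density. The large subunit median was 72.2 in replicate 1 and 73.2 in replicate 2, and the small subunit median was 66.2 and 91.4. Their ratio was 1.09 in replicate 1 and 0.801 in replicate 2 (0.946 ± 0.205, SD, n = 2), so each replicate put a different subunit ahead, and leaving out replicate 2 turned the direction. Of the 29 small subunit genes, 14 lay below and 15 above the large subunit median of mean density. Counting only protein_coding transcripts put the large subunit ahead in both replicates, with ratios of 1.16 and 1.39. Dividing by transcript length put the small subunit ahead in both, with 0.851 and 0.871, and so did adding the subunits with other symbols (0.819 and 0.794) and leaving out members that overlap another gene (0.764 and 0.799). Moving Mrps18a and Mrps30 to the large subunit and leaving out Mrps36 gave 1.12 and 0.931. In CPM the large over small ratio of medians was 0.964 and 0.884.

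Divisions by ancestry and by disease gave small differences. The 46 members listed as having a bacterial counterpart had median densities of 73.3 and 84.6, and the 31 not listed so had 72.0 and 64.1. The ratio between these groups was 1.02 in replicate 1 and 1.32 in replicate 2, which is near equality in one animal. The 31 are all the remaining members and not only proteins specific to mitochondria. They include Mrps36, and also Mrps18a and Mrps18b, although their paralog Mrps18c was listed. The ratio was not recomputed with these genes moved or left out. The 11 members listed as human mitochondrial disease genes (Mrpl3, Mrpl12, Mrpl44, Mrps2, Mrps7, Mrps14, Mrps16, Mrps22, Mrps25, Mrps28 and Mrps34) had median densities of 62.4 and 56.8, against 74.6 and 78.0 in the other 66. In CPM their ratio to the other members was 0.817 and 0.984. Their median coding sequence was 657 nucleotides, against 571.5 in the others.

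**Figure D2:**
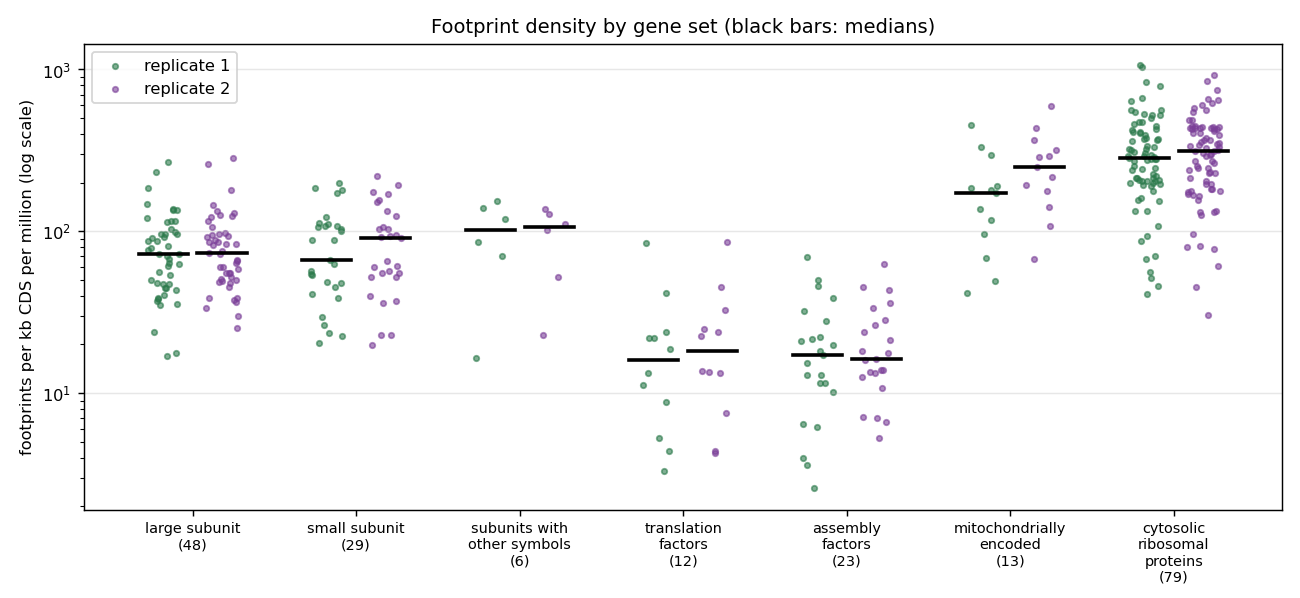
Footprint density of each gene, in CPM per kilobase of coding sequence on a log axis, by gene set, with points for genes in replicate 1 (green) and replicate 2 (purple) and black bars for the medians. Large subunit medians lie at 72.2 and 73.2 and small subunit medians at 66.2 and 91.4, below the cytosolic ribosomal proteins at 285 and 314 and above the translation and assembly factors, between 16.04 and 18.2.

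Other parts of the same machinery were set beside the members. The 6 mitoribosomal subunits that carry other symbols had median densities of 102 and 107. They ran from Ptcd3, with 16.4 and 23.0, to Aurkaip1, with 139 and 137, and included the GTP-binding small subunit protein Dap3, with 119 and 128. The 12 mitochondrial translation factors had medians of 16.04 and 18.2. Tufm, the mitochondrial elongation factor Tu, was far above the rest with 84.4 and 85.9, and the release factor Mtrf1 was lowest with 4.39 and 4.25. The 23 assembly factors, which modify and fold the ribosomal RNA or dock subunits, had medians of 17.2 and 16.2, from Nsun4 with 3.98 and 5.26 to Ngrn with 69.2 and 62.7. The median density of the members was 4.49 and 4.06 times that of the translation factors and 4.20 and 4.53 times that of the assembly factors. The 13 proteins encoded in mitochondrial DNA, which mitochondrial ribosomes translate, had medians of 174 and 251, from mt-Nd3 with 41.6 and 67.2 to mt-Co1 with 453 and 593. How fully mitochondrial ribosomes were recovered relative to cytosolic ones was not tested, so these densities may not share a scale with those of the members.

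Cytosolic ribosomal proteins form the most similar set, being the proteins of the other ribosome of the same cells. Their median density was 285 in replicate 1 and 314 in replicate 2, which is 3.95 and 4.27 times that of the mitochondrial set (4.11 ± 0.222, SD, n = 2). The sets overlapped: 74 of the 79 cytosolic genes lay above the median member and 47 lay above the densest member. The ratio of median CPM was 2.94 and 3.17. With the most counted protein_coding transcript of each gene, over that transcript's own coding sequence, the density ratio was 2.58.

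Members were more alike in footprints per gene than in footprints per length. The SD of log2 CPM over the 77 genes was 0.59 in replicate 1 and 0.55 in replicate 2, and that of log2 density was 0.89 and 0.83. Over all coding genes tested the SD of log2 density was 2.13 and 1.98, and over the cytosolic ribosomal proteins 0.98 and 0.94. The highest member had 8.96 and 7.41 times the CPM of the lowest (Mrpl20 over Mrpl47 in replicate 1 and over Mrpl42 in replicate 2) and 15.7 and 14.3 times its density (Mrpl20 over Mrpl1, and Mrpl33 over Mrps27). Between the quartiles the density ratio was 2.36 and 2.05.

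The difference between the scales followed coding length. Across members, Spearman's correlation between CPM and coding length was -0.0846 in replicate 1 and -0.0249 in replicate 2, and that between density and coding length was -0.746 and -0.724. Since density contains the length as its divisor and CPM was almost flat in length, the second pair follows from the first. The 39 members with a coding sequence of up to 579 nucleotides had 2.11 and 1.98 times the median density of the 38 longer ones but 1.06 and 1.08 times their median CPM. The 10 members of highest mean density had coding sequences of 198 to 531 nucleotides and the 10 of lowest density 759 to 1329. In the cytosolic ribosomal proteins CPM rose with coding length, with Spearman correlations of 0.468 and 0.506 across 79 genes and log2 slopes of 0.72 and 0.80, against slopes of -0.08 and -0.0036 in the members. Over all coding genes the Spearman correlation between CPM and coding length was 0.0324 and 0.0716, with slopes of 0.05 and 0.12. These are correlations across genes that share 2 libraries, given as descriptions.

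**Figure D3:**
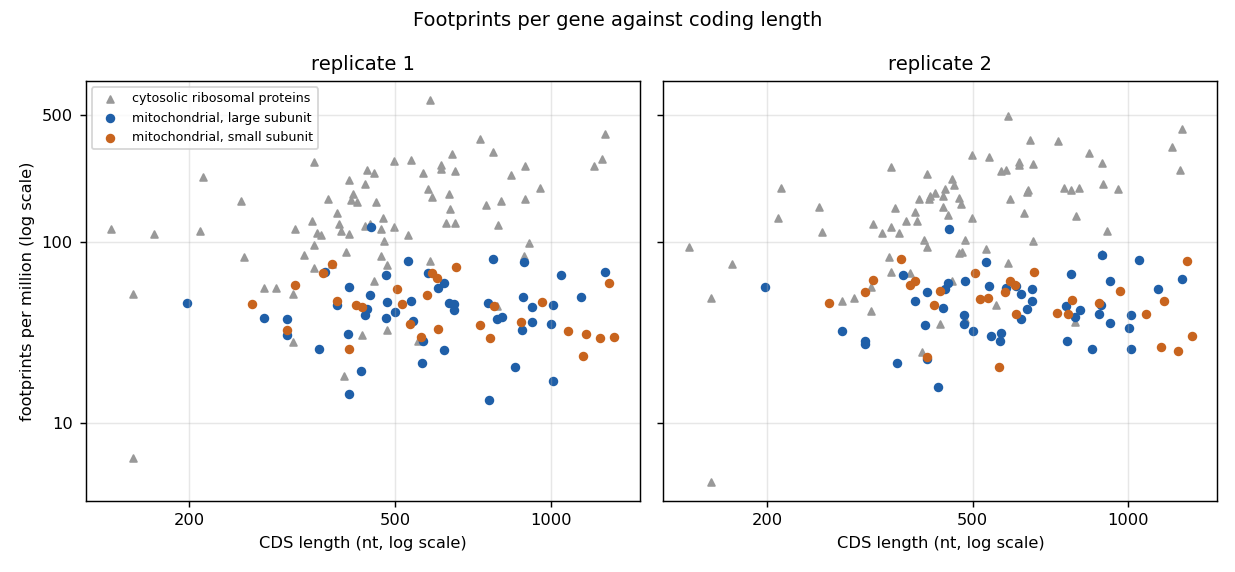
CPM per gene against coding length in nucleotides, both on log axes, with 1 panel per replicate, mitochondrial large subunit genes in blue, small subunit genes in orange and cytosolic ribosomal proteins as grey triangles. Mitochondrial members form a flat band between 13.4 and 120 CPM, and cytosolic values rise with length.

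Within the subunits the relation of CPM to coding length pointed in opposite directions. The Spearman correlation was 0.0911 and 0.182 over the 48 large subunit genes and -0.368 and -0.337 over the 29 small subunit genes. Among the 29, the long genes Mrps31, Mrps27 and Mrps30 had between 23.6 and 30.2 CPM in both animals, whereas Mrps5, also long at 1299 nucleotides, had 58.9 and 78.1 CPM. That contrast was absent on protein_coding transcripts alone. There Mrps5 had 45 and 152 footprints, Mrps31 44 and 139, Mrps27 55 and 131, and Mrps30 56 and 159. The difference between the subunits in this relation was not tested. The 29 were grouped by symbol and include Mrps30 and Mrps18a, whose products sit in the large subunit, and Mrps36. The correlations were not recomputed without them.

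The order of the members was largely shared by the 2 brains, as far as the depth allowed. Spearman's correlation between the replicates' densities was 0.935 across the 77 genes, against 0.934 across the cytosolic ribosomal proteins and 0.978 across all coding genes. Of the 10 densest members of each replicate, 8 were shared, and so were 8 of the 10 least dense. Neighbours in the order were not resolved: of the 76 adjacent pairs in the order of mean density, 12 stood in that order in both replicates and 64 did not.

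For each gene, an exact binomial test (two-sided) asked whether the split of its footprints between the replicates differed from that of the TMM-scaled library sizes, over the 16427 genes that reached the minimum count, with p-values adjusted by the Benjamini-Hochberg method. This compares 2 libraries and covers counting noise, not a condition. Of the 77 members 6 were called at an adjusted p under 0.05, which is 7.79%, against 17.4% of all genes tested and 18.9% of the 8237 genes whose mean counts fell within the members' range. At an unadjusted p under 0.05 there were 12 of the 77, against 4547 of the 16427 genes tested. Of the 6, 2 were higher in replicate 2 and 4 lower, where 5.95% and 11.5% of all genes were called in those directions. With library totals in place of the TMM scaling (trimmed mean of M values), which lowers every log2 ratio by 0.13, 7 members were called, 5 higher and 2 lower. With edgeR's exact test and a common dispersion, no member was called and 2 had an unadjusted p under 0.05. That dispersion could only be estimated from the same 2 libraries, so it contains the difference being tested, and this count says nothing about the stability of the calls.

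The clearest difference was in Mrpl43, a mitochondria-specific large subunit gene, which had 122 footprints in one library and 208 in the deeper one. Its density was 136 and 82.4, with intervals of 113 to 163 and 71.5 to 94.3, and its log2 ratio of replicate 2 over replicate 1 was -0.84 (exact binomial test, adjusted p = 1.18e-05). Its gene span overlaps that of Twnk, and the use of strand in counting is not given in the sources used here, so reads of these genes may not be separable. Mrpl47 moved the other way, with 25 and 150 footprints and a log2 ratio of 0.94 (exact binomial test, adjusted p = 0.00964). Mrps6, whose span overlaps Slc5a3, had 141 and 302 footprints and a log2 ratio of -0.52 (exact binomial test, adjusted p = 0.00495). These 3 were called by the binomial test under all scalings, filters and transcript choices tried.

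The other called members were closer to the threshold. Mrps28 had 56 and 107 footprints with a log2 ratio of -0.67 (exact binomial test, adjusted p = 0.0306), and the call was lost with library totals (adjusted p = 0.0886), with no filter (0.0624) and with the most counted transcript (0.0980). Mrps36 had 61 and 277 footprints with a log2 ratio of 0.56 (exact binomial test, adjusted p = 0.0338), and the call was lost when only protein_coding transcripts were counted (log2 ratio 0.52, adjusted p = 0.250), or only the most counted transcript (0.71, adjusted p = 0.373). Mrpl28 had 149 and 348 footprints with a log2 ratio of -0.39 (exact binomial test, adjusted p = 0.0356), and the call was lost with library totals (adjusted p = 0.188), with no filter (0.0921), with protein_coding transcripts only (0.121) and with the most counted transcript (0.414). Mrps36 also has annotated pseudogenes with their own footprints, 7 and 40 on Mrps36-ps1 and 13 and 38 on Mrps36-ps2, whose reads may not be separable from those of the gene. The other pseudogenes of members with more than 1 footprint were Mrpl23-ps1, with 27 and 116, and Mrpl48-ps, with 13 and 39.

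**Figure D4:**
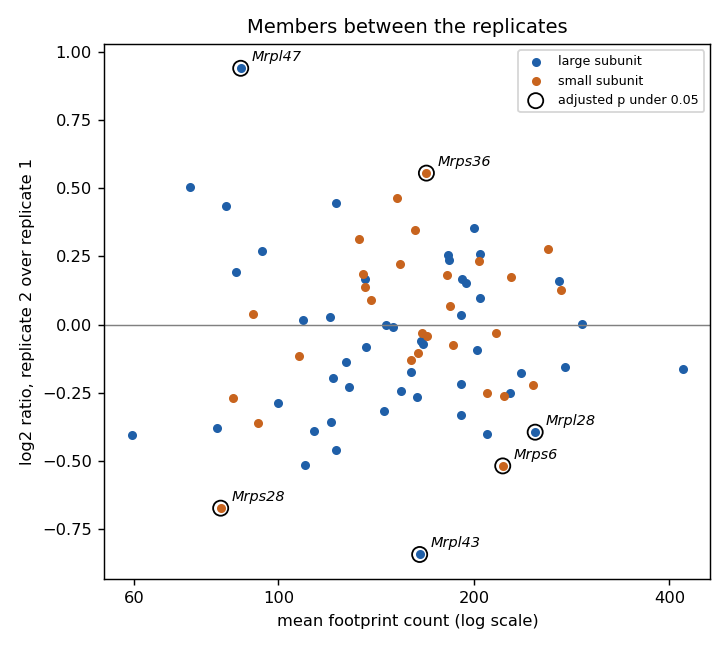
Log2 ratio of replicate 2 over replicate 1 for each member against its mean footprint count on a log axis, with the 6 called members named. Most members lie within 0.5 of 0, and Mrpl47 at 0.94 and Mrpl43 at -0.84 are farthest from it.

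Taken over all members, the ratios between the brains centred near 0. Their median log2 ratio was -0.04, against 0.01 over all genes tested, with 34 members higher and 43 lower in replicate 2. With library totals it was 0.08, with 46 higher and 31 lower, so the side of 0 on which the median falls depends on the scaling. The median was -0.09 in the large subunit and 0.04 in the small. A log2 ratio within 0.5 of 0 was found for 90.9% of the members and 74.0% of all genes tested. These shares were not matched for count: the median of the mean counts was 163.5 in members and 96 over all genes tested. Among the related lists, 2 of the 6 subunits with other symbols were called, Chchd1 (log2 ratio -0.70) and Gadd45gip1 (-0.56), both lower in replicate 2. None of the 12 translation factors was called by the exact binomial test, with 1 at an unadjusted p under 0.05. Of the 23 assembly factors 3 were called, Dhx30 higher (0.30) and Rbfa (-0.67) and Ftsj2 (-0.88) lower. The 13 mitochondrially encoded genes were all higher in replicate 2, with a median log2 ratio of 0.55, and 9 were called. Of the cytosolic ribosomal proteins 22 of 79 were called, or 27.8%.

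The deposited counts belong to transcripts, and many member footprints were assigned to transcripts not classed as protein_coding. Protein_coding transcripts took 68.2% ± 1.63 of member footprints, transcripts with a retained intron 13.8% ± 0.504, processed transcripts without an annotated reading frame 12.8% ± 1.37, and targets of nonsense-mediated decay 5.24% ± 0.246 (SD, n = 2). Over all coding genes tested the protein_coding share was 80.2% ± 1.12, and over the cytosolic ribosomal proteins 62.2%. These transcripts overlap the coding ones in sequence, how shared fragments were assigned is not given in the sources used here, and a footprint assigned to such a transcript may have come from the coding one. Of the 287 member transcripts 144 are protein_coding. In 24 members every footprint was on a protein_coding transcript, and 17 of these 24 genes have a single annotated transcript.

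In 19 members under 50% of the footprints of both libraries together were on protein_coding transcripts. The lowest shares were those of Mrps9 (23.7% ± 4.27), Mrpl33 (23.9% ± 5.69), Mrps11 (25.0% ± 4.03) and Mrps34 (28.4%), means over both animals. The others were Mrpl27, Mrps24, Mrpl38, Mrpl17, Mrps5, Mrpl48, Mrps2, Mrps36, Mrpl21, Mrps35, Mrpl14, Mrpl3, Mrpl37, Mrpl51 and Mrpl23. For Mrpl33, the protein_coding transcript had 24 of 86 footprints in replicate 1 and 59 of 297 in replicate 2, and a decay target with a longer reading frame of 324 nucleotides had 19 and 45. For Mrps11, which has 1 protein_coding transcript, that transcript had 21 of 95 and 77 of 277 footprints. When only protein_coding counts were used, Mrps17 led with a density of 257 ± 35.5 (SD, n = 2), Mrpl20 followed with 202 ± 2.71, and 6 of the 10 densest members were the same. The order by protein_coding counts had a Spearman correlation of 0.787 with the order by all counts.

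**Figure D5:**
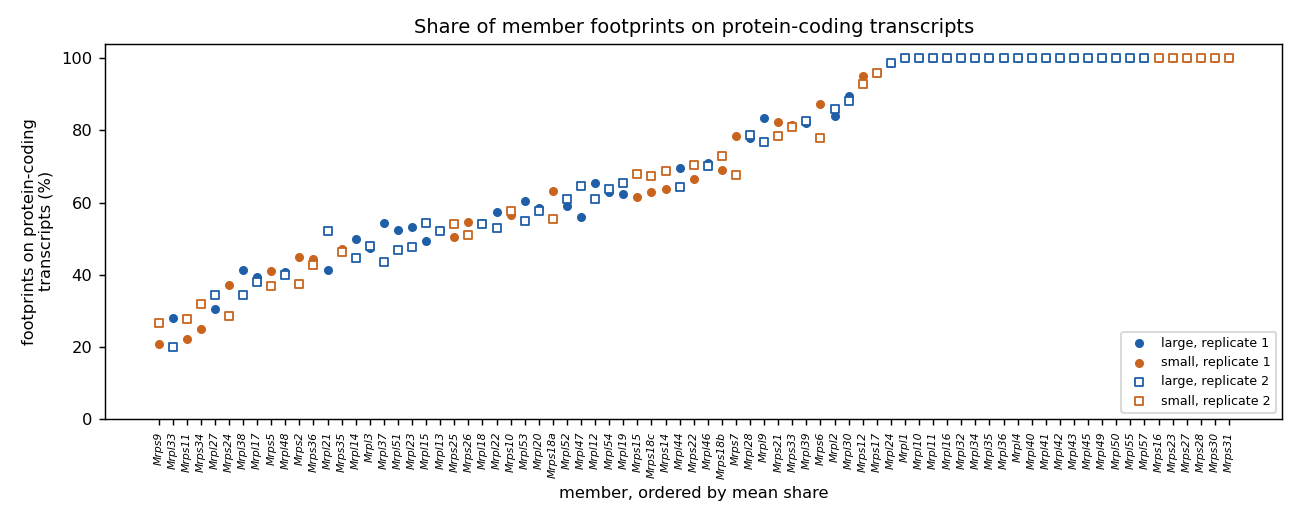
Percent of each member's footprints assigned to protein_coding transcripts, with filled circles for replicate 1, open squares for replicate 2, large subunit genes in blue and small in orange, ordered by the mean. The means run from 23.7% in Mrps9 to 100% in 24 genes.

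Gene starts were examined because messages of cytosolic ribosomal proteins begin with a C followed by a run of pyrimidines, the 5′ terminal oligopyrimidine (TOP) tract through which their translation is controlled as a group. RefSeq promoter windows of assembly GRCm38.p6, reaching from 250 bases before to 50 bases after the start, were found for 68 of the 77 members, in 74 windows. A start on C with at least 5 pyrimidines in a row was found in 0 of the 74 member windows and in 14 of the 73 windows of cytosolic ribosomal protein genes (19.2%). Over protein-coding genes it was found in 2.21% and over all windows in 2.51%. The match depends on the exact start base in the annotation, so a tract that begins a few bases away is not counted. The first lines below show 30 bases around the annotated start, 15 on each side, of the 3 densest members of each subunit, with the first 5 bases of the transcript in capitals. The last 2 lines show cytosolic genes with the longest runs, with the run in capitals.
Mrpl20, chr4:155802863-155802892, plus strand: tgactttcggaagagCTGTCagtgctctta
Mrpl33, chr5:31613936-31613965, plus strand: cccgcgcatgccccgGAAGTagtcgttgag
Mrpl52, chr14:54426894-54426923, plus strand: tgccggggccacgccCACTTccggttccct
Mrps17, chr5:129715482-129715511, plus strand: gggctagcgcaccgtGAGCGtcatcacgct
Mrps33, chr6:39810922-39810951, minus strand: ttccgcctctctcctGCTCTctggagctgg
Mrps6, chr16:92058321-92058350, plus strand: tgctttcgccgtccgGGAGCtgaccggccg
Rpl15, chr14:18270972-18271001, minus strand: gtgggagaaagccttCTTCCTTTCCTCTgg
Rpl35, chr2:39005117-39005146, minus strand: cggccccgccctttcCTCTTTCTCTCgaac

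None of the 6 members shown starts on an uninterrupted pyrimidine tract, whereas Rpl15 and Rpl35 start on a C at the head of one. Mrps33 has a pyrimidine-rich stretch just before its annotated start.

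The same windows were searched on both strands for cores of factors known for nuclear genes of mitochondria: CCGGAAGT of the ETS family, to which GABP (NRF-2) belongs, GCGCATGC of NRF-1, and AAGATGGC of YY1. The ETS core was in 12 of 74 member windows (16.2%), in 16.4% of cytosolic ribosomal protein windows, in 5.15% of protein-coding windows and in 3.89% of all windows. The YY1 core was also in 12 member windows (16.2%), against 9.59%, 3.05% and 2.75% in those sets. The NRF-1 core was in 8 member windows (10.8%), against 4.11%, 3.52% and 2.71%. TATAAA was in 5 member windows (6.76%), against 12.6% of protein-coding windows and 13.6% of all windows. Median GC content was 58.5% in member windows and 56.3% in protein-coding windows. A match describes letters in a window and was not tested as a binding site. The lines below show a window for each core, with the core or its reverse complement in capitals.
Mrpl33, chr5:31613928-31613957, plus strand: taccggaacccGCGCATGCcccggaagtag
Mrpl17, chr7:105811080-105811109, minus strand: gccgagttactGCGCATGCgtcctctgaga
Mrpl52, chr14:54426899-54426928, plus strand: gggccacgcccACTTCCGGttcccttgctc
Mrpl27, chr11:94653725-94653754, plus strand: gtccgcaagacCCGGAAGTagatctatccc
Mrps24, chr11:5707652-5707681, minus strand: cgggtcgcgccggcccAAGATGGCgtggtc
Mrps18a, chr17:46111004-46111033, plus strand: aggtgcgttccAAGATGGCggccctcaggg

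In Mrpl33 the NRF-1 core is followed, a base later, by an ETS core that spans the annotated start. In Mrps18a and Mrps24 the YY1 core lies inside the transcript. The 12 members with an ETS core had median densities of 102 and 88.8, and the 56 matched members without it 71.0 and 73.2. The 12 with a YY1 core had 67.4 and 59.8, against 74.6 and 82.6 without it. The 8 with an NRF-1 core had 46.0 and 52.2, against 80.2 and 83.4. These medians are descriptions of few genes and carry no test.

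A pair of members have neighbouring starts. Mrps11 and Mrpl46 lie on opposite strands of chromosome 7 with annotated starts 42 bases apart. Over all transcripts their densities were 88.3 and 91.4 for Mrps11 against 23.9 and 29.9 for Mrpl46. The gene of the small subunit thus had the higher density in both brains. In CPM Mrps11 had 50.9 and 52.6 and Mrpl46 20.4 and 25.5. Most of this gap was absent on protein_coding transcripts alone. There Mrps11 had densities of 25.6 and 33.99, from 21 and 77 footprints. Mrpl46 had 22.2 and 28.05, from 27 and 94 footprints. The Mrps11 window is shown because it spans both starts. The capitals mark the reverse complement of the YY1 core, which lies outside the Mrpl46 window.
Mrps11, chr7:78782881-78783180, plus strand: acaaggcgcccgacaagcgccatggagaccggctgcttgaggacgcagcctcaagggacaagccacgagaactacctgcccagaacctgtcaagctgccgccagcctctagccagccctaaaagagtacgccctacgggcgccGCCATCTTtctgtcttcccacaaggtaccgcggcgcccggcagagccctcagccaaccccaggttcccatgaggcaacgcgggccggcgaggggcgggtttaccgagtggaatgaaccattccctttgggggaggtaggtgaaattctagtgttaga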

How the data were processed

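The authors deposited raw counts of ribosome footprints per transcript, 1 column per replicate, with annotated lengths of transcript, coding sequence and leader. Per the submitters' processing notes, Trimmomatic 0.36, Bowtie2 2.2.6, SAMtools and the build GRCm38.p4 were used; the annotation release, the use of strand and the treatment of fragments shared by transcripts are not given in the sources used here. In 42 pairs of transcripts of 1 gene with identical lengths, the squared difference of the counts over their sum averaged 1.10 (1 for independent counts), so counts were summed per gene. The sources call the samples biological replicates, without naming litter or sex.

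Levels are CPM, counts per 1000000 library footprints, and density, CPM per kilobase of the longest protein_coding coding sequence. Replicates were compared with a two-sided exact binomial test on TMM library sizes (edgeR 4.0.16), with a prior of 0.5 CPM in log2 ratios; edgeR's quasi-likelihood test had no contrast to fit. The script was tested on simulated data. Intervals and p-values cover counting error only, since PCR copies are not independent molecules. The symbol rule for members used no measured value, but it, the lists and the alternatives were written with earlier results of these data known. Named were the 5 highest and 5 lowest members of each subunit by density, the Mrps18 paralogs, stalk, tunnel exit and decoding genes, Mrps30, Mrps36, the called members, those under 50% on protein_coding transcripts, and the extremes and called genes of the other lists. Mrps11 with Mrpl46, the genes whose sequences are shown, and further members used as examples were chosen with their values in view. Alternatives were other scalings (library totals; DESeq2 1.42.0), transcripts, lengths, filters and members. RefSeq gene coordinates of GRCm38.p6 served for gene overlaps and promoter windows. RNA abundance and reading frame were not analysed here.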

Additional observations from a re-analysis of the deposited data

How the results depend on the processing

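The share of footprints on members was 0.320% when only protein_coding transcripts were counted, against 0.355% over all, and 0.345% to 0.364% when either replicate was left out. The large over small ratio of median density (0.946) was 1.28 with protein_coding transcripts only and 1.23 with the most counted protein_coding transcript over its own coding sequence, and 0.801 to 1.09 without either replicate. It was 0.861 with transcript length, 0.902 with the coding sequence of the most counted protein_coding transcript, 0.806 with subunits of other symbols added, 1.02 with Mrps18a and Mrps30 moved and Mrps36 left out, and 1.06 from summed footprints over summed lengths. Without the 25 members that overlap another RefSeq gene it was 0.781, and with named pseudogenes added 0.971; these settings, and the spread over single-transcript members (0.83), were chosen after seeing the data. The SD of log2 density (0.86) was 1.03 with transcript length, 0.94 with protein_coding transcripts only, 0.92 with the most counted protein_coding transcript, and 0.83 to 0.89 without either replicate. The cytosolic over mitochondrial density ratio (4.11) was 5.16, 3.81 and 2.58 under the same 3 settings, above 1 in each, and 3.95 to 4.27 without either replicate. The cause of these changes was not tested. The protein_coding share of member footprints ranged from 67.0% to 69.3% without either replicate. Members called different between the replicates numbered 6 in the analysis reported, 3 with the most counted transcript of each gene and 0 with edgeR's exact test and a common dispersion, which called 11 of the 16427 genes and gave 2 members an unadjusted p under 0.05. With no filter or with protein_coding transcripts only there were 4. Over 36 combinations of a called member and an alternative, 21 kept the call, 15 lost it and 0 changed direction; 6 of the losses came from edgeR's exact test, whose dispersion was estimated from the same 2 libraries and is void as a check of stability. No paired analysis was possible because the design has 1 group, so no groups share replicate numbers. Depth limits the order of neighbouring members, which rest on 25 to 224 footprints in replicate 1.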
